A study of Homo sapiens with 12 samples.

Results

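The genes described here are coding genes, weak in control cells, that stood many-fold higher after loss of RNA polymerase II in the human colon cancer line HCT116. They are LVRN, CPM, CNTN2, TNXB, ITGAM, CD14, APOLD1, TEX14 and CFAP43. They are 9 of 63241 genes in the deposited count table and of 14924 protein-coding genes that passed the filter on low counts. They were chosen by their level in the POLR2A-depleted libraries against the controls, so that difference is given as a description and carries no test. In control cells each of them averaged 3.21 counts-per-million (c.p.m.) or less, and in the POLR2A-depleted cells 7 of them reached between 29.3 and 38.3 c.p.m. These levels are shares of each library of bulk RNA, so more RNA per cell and more cells with the RNA cannot be told apart.

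The POLR2A-depleted group consisted of HCT116-POLR2A-AID2 cells given 5-phenyl-indole-3-acetic acid at 1 µM, a ligand that sends the tagged largest subunit of RNA polymerase II to the proteasome. The POLR1A-depleted group was HCT116-POLR1A-AID cells, first given 1 µg/ml doxycycline for 24 h to induce the adaptor OsTIR1 before indole-3-acetic acid at 500 µM, which removes the largest subunit of RNA polymerase I. Wild-type HCT116 cells received 5 µg/ml actinomycin D, a DNA intercalator that blocks transcription, or the solvent DMSO as control. Each group had 3 libraries of rRNA-depleted total RNA from dishes treated on the same day and not from separate cultures, and the p-values reflect dish-to-dish spread alone. By their titles the degron and control dishes were treated for 8 h and the actinomycin D dishes for 6 h, whereas the protocol places the harvest at 6 h. No degron line without its ligand was analysed here, so cell line, ligand, inducer and depletion cannot be told apart.

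Library totals ran from 11289094 to 15037410 counts with POLR2A depleted, 18796962 to 21802217 with POLR1A depleted, 20302164 to 27393969 with actinomycin D and 12235068 to 17535685 in controls. Genes with a count numbered 37371 to 39193 in the POLR2A-depleted libraries and 30774 to 31743 in controls. Colon epithelial markers summed to 2457 to 2670 c.p.m. with POLR2A depleted and 3628 to 4107 in controls. The sums were lower still with POLR1A depleted, at 1961 to 2104, and were 3324 to 3617 with actinomycin D. Of 9 tested, 1, EPCAM, was higher with POLR2A depleted and 6 were lower, against 33.2% and 28.2% of all tested genes. CDX1 had no count in any library.

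RNA polymerase II transcribes protein-coding genes, and release of the enzyme follows cleavage of the transcript at the polyadenylation signal. A polymerase that passes this point can carry RNA into a gene that lies downstream on the same strand. Total RNA libraries count such RNA, as well as unspliced RNA, wherever it covers the exons of an annotated gene. The 9 genes are best known from other tissues. LVRN and CPM encode cell-surface peptidases, CNTN2, TNXB and ITGAM encode adhesion and matrix proteins, CD14 encodes a receptor for bacterial lipopolysaccharide, APOLD1 is an early response gene of endothelium, and TEX14 and CFAP43 serve the germ cell bridge and the sperm tail or motile cilium.

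The sequences before the annotated starts of 4 of these genes are shown because their levels moved together in the POLR2A-depleted libraries while the sequences differ. They are RefSeq windows of GRCh38.p14 that end at or shortly before the start and hold no annotated exon. Capitals mark the GC box GGGCGG or its reverse complement, which reads CCGCCC. They also mark the CCAAT box, which reads ATTGG on the other strand, and the TATA box in its form TATAAA, which reads TTTATA on the other strand. The windows are chr12:12725667-12725916 on the plus strand for APOLD1, chr5:115962225-115962453 on the plus strand for LVRN, chr10:104232365-104232614 on the minus strand for CFAP43 and chr16:31259725-31259966 on the plus strand for ITGAM.
APOLD1: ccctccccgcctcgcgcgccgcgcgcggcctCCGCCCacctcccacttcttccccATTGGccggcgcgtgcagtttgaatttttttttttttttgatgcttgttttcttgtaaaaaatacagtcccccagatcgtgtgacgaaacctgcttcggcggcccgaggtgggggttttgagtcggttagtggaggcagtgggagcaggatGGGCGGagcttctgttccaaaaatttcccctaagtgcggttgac
LVRN: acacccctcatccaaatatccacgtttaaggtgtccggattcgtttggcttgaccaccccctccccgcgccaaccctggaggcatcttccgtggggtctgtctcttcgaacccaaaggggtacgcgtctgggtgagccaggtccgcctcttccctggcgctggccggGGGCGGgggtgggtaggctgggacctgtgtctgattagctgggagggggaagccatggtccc
CFAP43: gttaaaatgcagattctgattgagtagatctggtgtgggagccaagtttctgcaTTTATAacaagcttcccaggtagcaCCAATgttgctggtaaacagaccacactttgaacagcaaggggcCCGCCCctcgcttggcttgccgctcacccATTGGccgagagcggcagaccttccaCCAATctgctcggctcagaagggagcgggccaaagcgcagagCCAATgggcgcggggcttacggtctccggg
ITGAM: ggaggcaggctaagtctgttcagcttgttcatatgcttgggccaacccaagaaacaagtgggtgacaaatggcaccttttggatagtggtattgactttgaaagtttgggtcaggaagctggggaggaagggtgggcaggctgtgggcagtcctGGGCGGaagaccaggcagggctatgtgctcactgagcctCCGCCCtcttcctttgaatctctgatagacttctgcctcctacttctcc

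All 4 windows held at least 1 GC box in either orientation and otherwise differed. CFAP43 held all 3 kinds of motif, the TATA box and the GC box each in reverse and the CCAAT box in both orientations. LVRN held a single GC box, ITGAM held GC boxes in both orientations, and APOLD1 held these and a reversed CCAAT box. GC content over the full 250 bases before the start was 56.8% for APOLD1, 63.6% for LVRN, 56.8% for CFAP43 and 53.2% for ITGAM, against a median of 58.0% over 35116 RefSeq windows. Of the 9 genes 8 had a window in the table, with 13 windows in all. The GC box was found in 7 of these 13 on either strand, against 42.6% of all windows, the CCAAT box in 4 of 13, against 32.0%, and the TATA box in 2 of 13, against 10.7%. A match describes letters only. The windows follow RefSeq starts, which lie well inside the gene spans used below for CPM, TNXB and the second start of APOLD1, and inside that of CD14 as well.

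The surface peptidases came first by role. LVRN (ENSG00000172901, chr5:115962454-116027619), which encodes laeverin, an aminopeptidase of placental trophoblast, had 32.4, 30.3 and 29.4 c.p.m. in the POLR2A-depleted libraries. It had 4.77, 4.56 and 4.84 with POLR1A depleted, 1.62, 1.07 and 0.752 with actinomycin D, and 0.625, 1.38 and 1.69 in controls. The POLR2A-depleted libraries lay above all others, the POLR1A-depleted ones above actinomycin D and control, and the last 2 groups overlapped. LVRN was 23.9-fold higher with POLR2A depleted than in controls, a log2 difference of 4.58 (SE 0.22).

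CPM (ENSG00000135678, chr12:68842197-68971570) encodes carboxypeptidase M, a membrane-anchored enzyme that trims basic residues from the ends of peptides. It stood at 34.3, 37.9 and 32.0 c.p.m. with POLR2A depleted, 7.37, 7.06 and 6.68 with POLR1A depleted, 6.52, 6.01 and 5.54 with actinomycin D, and 1.95, 2.34 and 2.28 in controls. The 4 groups did not overlap, and all 3 treatments stood above the controls. The log2 difference from controls was 3.98 (SE 0.14) with POLR2A depleted, 1.67 (SE 0.15) with POLR1A depleted and 1.45 (SE 0.15) with actinomycin D.

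Among the adhesion and matrix genes, CNTN2 (ENSG00000184144, chr1:205042937-205078284) encodes contactin-2, an adhesion protein of axons. CNTN2 had 29.1, 37.2 and 30.8 c.p.m. with POLR2A depleted, 1.56, 1.43 and 1.2 with POLR1A depleted, 0.809, 1.39 and 1.17 with actinomycin D, and 1.56, 1.8 and 1.58 in controls. It was high in the POLR2A-depleted libraries alone among the 4 groups, at a log2 difference of 4.29 (SE 0.18) from controls. Its differences with POLR1A depleted and actinomycin D were -0.25 (SE 0.22) and -0.52 (SE 0.23), and both changed sign under scaling by mitochondrial mRNAs, to 0.14 and 0.41.

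TNXB (ENSG00000168477, chr6:32041153-32115334) encodes tenascin-X, a glycoprotein of connective tissue. Its levels were 29, 32.4 and 26.6 c.p.m. with POLR2A depleted, 3.32, 4.15 and 4.01 with POLR1A depleted, 2.97, 3.86 and 2.26 with actinomycin D, and 1.8, 1.5 and 1.75 in controls. All treated libraries lay above the controls, and the POLR1A-depleted and actinomycin D libraries overlapped each other. The log2 difference of TNXB from controls was 4.13 (SE 0.19) with POLR2A depleted, 1.19 (SE 0.21) with POLR1A depleted and 0.86 (SE 0.21) with actinomycin D. TNXB has a partial pseudogene copy, TNXA, and shares 298 exon bases with CYP21A2 on the other strand, which averaged 1.79 c.p.m. with POLR2A depleted and 0.0973 in controls, so reads of these stretches are uncertain.

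ITGAM (ENSG00000169896, chr16:31259967-31332892) encodes the alpha chain of a leukocyte integrin that binds complement fragments. It had 158, 198 and 85 counts in the POLR2A-depleted libraries, 3, 1 and 6 with POLR1A depleted, 2, 5 and 3 with actinomycin D, and 3, 2 and 10 in controls. The POLR2A-depleted libraries stood far above the rest, and the other 3 groups overlapped. ITGAM was 30.1-fold higher with POLR2A depleted, a log2 difference of 4.91 (SE 0.42), or 5.77 without control replicate 3. Its partner chain ITGB2 averaged 0.1 c.p.m. with POLR2A depleted and 0.112 in controls.

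CD14 (ENSG00000170458, chr5:140631728-140633701) encodes the lipopolysaccharide co-receptor of monocytes. CD14 had 50, 57 and 57 counts with POLR2A depleted, 0, 1 and 2 with POLR1A depleted, 0, 2 and 1 with actinomycin D, and 0 in each control library. Taking 3 counts over the control group as the most that a count of 0 allows, CD14 was at least 58.1-fold higher with POLR2A depleted. The POLR1A-depleted and actinomycin D groups each had 3 counts in all, at the same limit, so no fold is given for them.

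APOLD1 (ENSG00000178878, chr12:12725917-12829975) encodes an apolipoprotein L domain protein of endothelial cells. It had 30.7, 32.9 and 28.8 c.p.m. with POLR2A depleted, 4.82, 4.38 and 3.59 with POLR1A depleted, 2.43, 1.91 and 2.44 with actinomycin D, and 1.25, 0.659 and 0.701 in controls. The groups formed 4 separate levels without overlap. The log2 difference of APOLD1 from controls was 5.18 (SE 0.20) with POLR2A depleted, a 36.3-fold difference, 2.33 (SE 0.22) with POLR1A depleted and 1.41 (SE 0.24) with actinomycin D. APOLD1 shared 1841 exon bases, 25.4% of its own, with DDX47 on the same strand, which averaged 63.9 c.p.m. with POLR2A depleted and 121 in controls, so the split of reads between the 2 genes is uncertain.

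TEX14 (ENSG00000121101, chr17:58556678-58692055) is required for the intercellular bridges of germ cells. Its levels were 29.3, 33.2 and 30.8 c.p.m. with POLR2A depleted, 3.01, 2.59 and 2.95 with POLR1A depleted, 1.40, 2.51 and 2.40 with actinomycin D, and 2.58, 1.08 and 2.22 in controls. TEX14 was high with POLR2A depleted, by 4.01 on the log2 scale (SE 0.22), and the actinomycin D and control libraries overlapped. It shares 169 exon bases with SEPT4-AS1 on the other strand, at 1.40 c.p.m. with POLR2A depleted and 0.151 in controls.

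CFAP43 (ENSG00000197748, chr10:104129888-104232362) encodes a protein of the axoneme. CFAP43 had 40.5, 38.4 and 35.8 c.p.m. with POLR2A depleted, 2.23, 1.88 and 1.38 with POLR1A depleted, 5.44, 6.17 and 6.01 with actinomycin D, and 3.43, 2.58 and 3.62 in controls. Unlike APOLD1, LVRN, CPM and TNXB, it lay below the controls with POLR1A depleted and above them with actinomycin D. The log2 difference of CFAP43 from controls was 3.58 (SE 0.15) with POLR2A depleted, -0.81 (SE 0.19) with POLR1A depleted and 0.88 (SE 0.16) with actinomycin D.

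**Figure D1:**
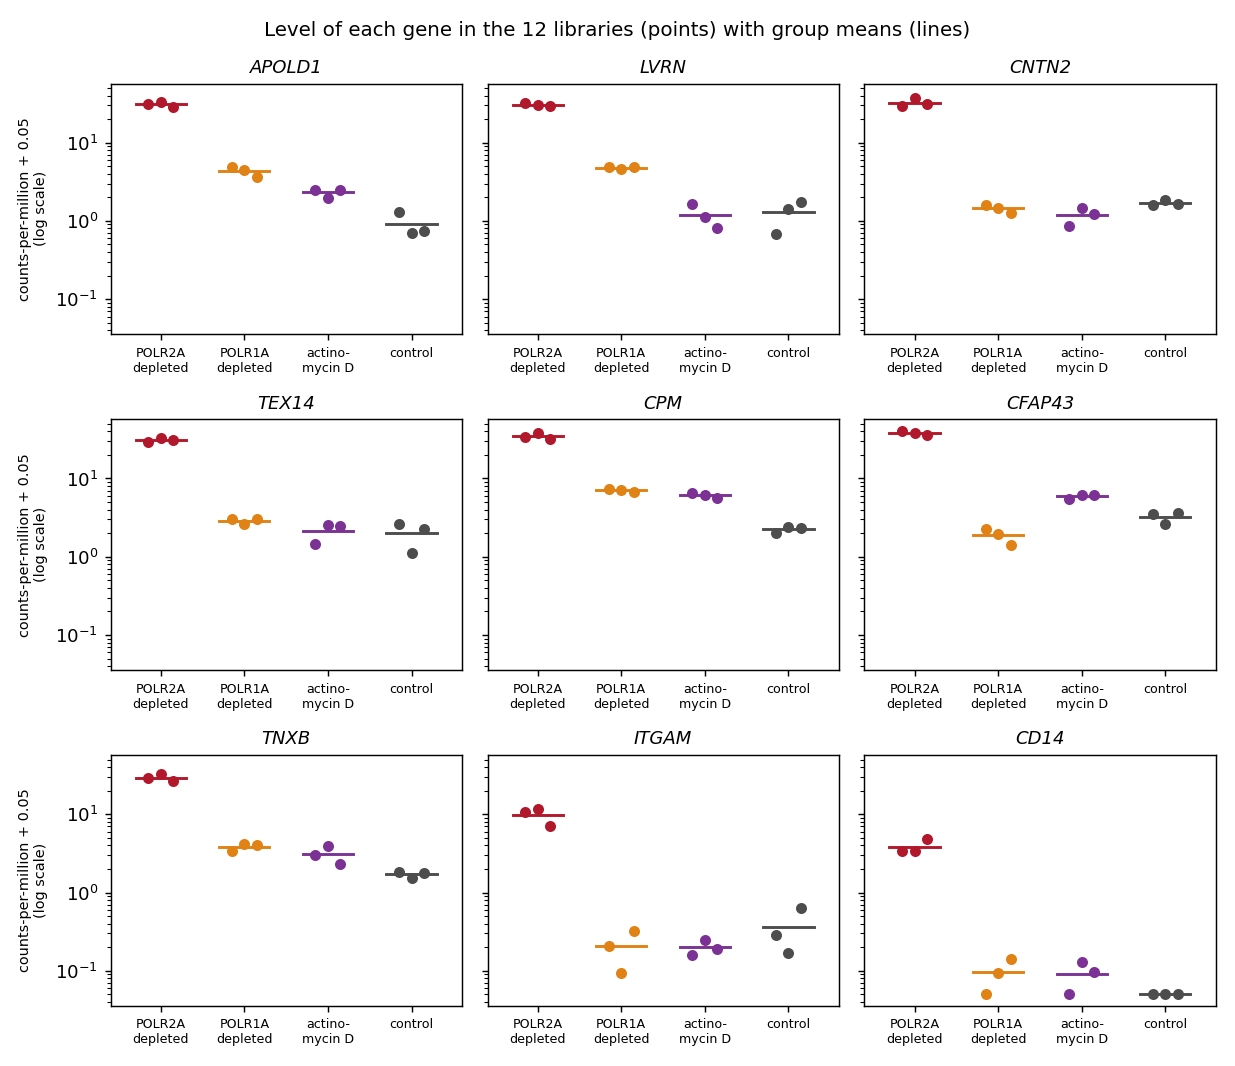
Level of each of the 9 genes in every library, as c.p.m. plus 0.05 on a log axis, with POLR2A-depleted, POLR1A-depleted, actinomycin D and control libraries from left to right; points are libraries and lines are group means. The POLR2A-depleted libraries stand above all others in each panel, while CFAP43 is lowest with POLR1A depleted and CD14 has no count in the controls.

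All 9 genes had every POLR2A-depleted library above every control library, a separation that 35.7% of all 23593 tested genes showed in the same direction. The rule used that contrast, so nothing is read from the count. Of the 9 genes 7 passed the filter on low counts without the POLR2A-depleted libraries, and ITGAM and CD14 passed only through them. Among the 9985 coding genes with an average log2 level of 3 or more, APOLD1, LVRN, CNTN2 and TNXB ranked 1, 2, 3 and 4, TEX14 and CPM 6 and 7, and CFAP43 11. ITGAM and CD14 lay under that abundance limit. The average covers all 12 libraries, those with POLR2A depleted included, and the ranks use the contrast that chose the genes. Nothing is therefore read from the ranks. Over all 14924 tested coding genes CD14 ranked 31 and the other 8 between 507 and 884, with APOLD1 at 507 and CFAP43 at 884. Within the 9985 genes over the abundance limit, DNAH10 ranked next below CFAP43 and differed by 3.47. In that same pool 4 genes that are not among the 9 ranked above CFAP43. They were ENSG00000282988 at 4.07, SEPTIN4 at 3.94, ITGA1 at 3.87 and ADAMTSL4 at 3.85.

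Levels per kilobase of annotated exon put the genes in another order. With POLR2A depleted TEX14 had 5.84 ± 0.37 c.p.m. per kilobase and CFAP43 5.33 ± 0.33, and LVRN 4.62 ± 0.23, CPM 4.61 ± 0.395 and APOLD1 4.25 ± 0.29 followed (SD, n = 3 each). CD14 with 2.02 ± 0.42, TNXB with 1.84 ± 0.18, CNTN2 with 1.82 ± 0.24 and ITGAM with 1.72 ± 0.43 formed a lower set in which neighbours differed by less than their SDs. LVRN and CPM also differed by less than their SDs. In controls the same measure was 0.447 for CFAP43, 0.368 for TEX14, 0.291 for CPM, 0.186 for LVRN, 0.120 for APOLD1, 0.106 for TNXB, 0.0926 for CNTN2, 0.0550 for ITGAM and 0 for CD14.

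The contrast of POLR1A depletion with actinomycin D sets 2 groups against each other that did not choose the genes, although filter, scaling and spread came from all 12 libraries. It was tested by edgeR's quasi-likelihood test, with Benjamini-Hochberg adjustment over 23593 genes. LVRN was higher with POLR1A depleted, at 4.72 ± 0.15 against 1.15 ± 0.44 c.p.m. with actinomycin D, a log2 difference of 2.06 (SE 0.23, edgeR adjusted p = 9.09e-08). APOLD1 was also higher, at 4.27 ± 0.62 against 2.26 ± 0.30 with actinomycin D, a difference of 0.92 (SE 0.18, edgeR adjusted p = 0.000135) that fell short of the threshold when libraries were scaled to mitochondrial mRNAs, at 0.36 (adjusted p = 0.230). CFAP43 was lower, at 1.83 ± 0.43 against 5.88 ± 0.38 with actinomycin D, a difference of -1.69 (SE 0.17, edgeR adjusted p = 1.19e-08; SD, n = 3 each). These 3 were the genes called among the 8 that had a value. In a fit of the libraries of the 2 groups alone they were called too, at 1.99 for LVRN, 0.86 for APOLD1 and -1.74 for CFAP43 (edgeR adjusted p = 4.89e-06, 0.00231 and 1.44e-06).

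For the other 5 the difference was 0.28 for CNTN2 (SE 0.22, edgeR adjusted p = 0.319), 0.41 for TEX14 (SE 0.23, adjusted p = 0.135), 0.22 for CPM (SE 0.12, adjusted p = 0.121), 0.33 for TNXB (SE 0.18, adjusted p = 0.124) and 0.04 for ITGAM (SE 0.67, adjusted p = 0.975). A p that misses the threshold does not show equal levels, and ITGAM, tested only because the POLR2A-depleted libraries carried it past the filter, had 10 counts in each group. TNXB passed without actinomycin D replicate 2, at 0.56 (edgeR adjusted p = 0.0165). Over all tested genes 31.8% were called higher and 24.4% lower with POLR1A depleted than with actinomycin D, so 2 higher and 1 lower of 8 is no more than the background. Every POLR1A-depleted library lay above every actinomycin D library for APOLD1, LVRN, TEX14 and CPM, against 35.2% of tested genes, and below for CFAP43, against 28.0%.

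The comparisons of POLR1A depletion and actinomycin D with control share the control libraries with the choosing contrast and are given side by side without a test. With POLR1A depleted, APOLD1, LVRN, TEX14, CPM and TNXB had all libraries above the controls, against 25.3% of tested genes, and CNTN2 and CFAP43 had all below, against 22.7%. With actinomycin D, APOLD1, CPM, CFAP43 and TNXB had all libraries above the controls, against 27.7%, and CNTN2 all below, against 30.4%. The difference of CNTN2 changed sign in both comparisons under mitochondrial scaling, as given above. APOLD1, CPM and TNXB were thus above the controls in each treatment, LVRN and TEX14 with both polymerases depleted, and CFAP43 with POLR2A depleted and with actinomycin D. With POLR1A depleted the lowest TEX14 library had 2.591 c.p.m. against 2.576 in the highest control. The highest CNTN2 library there had 1.556 against 1.561 in the lowest control, so both separations were narrow.

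The neighbourhoods, by the gene spans of GENCODE, were examined for an expressed gene upstream on the same strand, taken as a mean of 5 c.p.m. or more in controls within 50 kb of the start. Of the 9 genes 5 had one, which is 55.6%, against 39.0% of the 14924 tested coding genes. They were APOLD1, LVRN, TNXB, ITGAM and CD14. The count was 3 of 9 within 10 kb, against 18.2% of coding genes, and 6 of 9 within 100 kb, against 50.8%. On either strand within 50 kb it was 7 of 9, against 61.0%.

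APOLD1 began 3546 bases downstream of the end of CDKN1B, a cell-cycle inhibitor, which averaged 35.0 c.p.m. with POLR2A depleted and 31.1 in controls, a log2 difference of 0.16 (SE 0.08, edgeR adjusted p = 0.0956). RefSeq also lists a second start of APOLD1, 63288 bases from CDKN1B. With actinomycin D CDKN1B differed from controls by -2.02, while APOLD1 differed by 1.41. The annotated start of TNXB lay inside the end of ATF6B, a stress transcription factor, with 71 exon bases in common. ATF6B stood at 54.9 c.p.m. with POLR2A depleted and 40.4 in controls, a difference of 0.44, and the RefSeq starts of TNXB lay 5926 and 69136 bases from its end. The gene upstream of CD14 was NDUFA2, a subunit of respiratory complex I, 5039 bases away, at 28.8 c.p.m. with POLR2A depleted and 16.2 in controls, a difference of 0.83. From the last coding transcript of NDUFA2 to the RefSeq start of CD14 the distance was 12110 bases, beyond 10 kb. ITGAM lay 28430 bases from TRIM72, a membrane repair gene of muscle, which stood at 50.8 and 53.5, a difference of -0.08 (edgeR adjusted p = 0.392). LVRN lay 48373 bases from AP3S1, a coat adaptor subunit, which stood at 315 and 239, a difference of 0.40. Each of these 5 upstream genes differed by less than 1 on the log2 scale, and the gene downstream of it by 4.13 or more. The downstream genes were chosen on this comparison, so the gap was set in advance and nothing is read from it.

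CFAP43 had its nearest expressed same-strand gene, ITPRIP, 77336 bases upstream, at 49.5 c.p.m. with POLR2A depleted and 32.7 in controls. ITPRIP and CFAP43 had opposite signs against controls both with POLR1A depleted, at 0.85 and -0.81, and with actinomycin D, at -2.53 and 0.88. CNTN2 had NFASC, which encodes another axonal adhesion protein, 20115 bases upstream. NFASC was itself weak in controls, with 1.35 c.p.m., and stood at 18.9 with POLR2A depleted, a difference of 3.83 (SE 0.22). The nearest expressed gene upstream of CNTN2 was MDM4, 484817 bases away, and for TEX14 it was TRIM37, 290583 bases away. CPM had none closer than 1349972 bases.

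**Figure D2:**
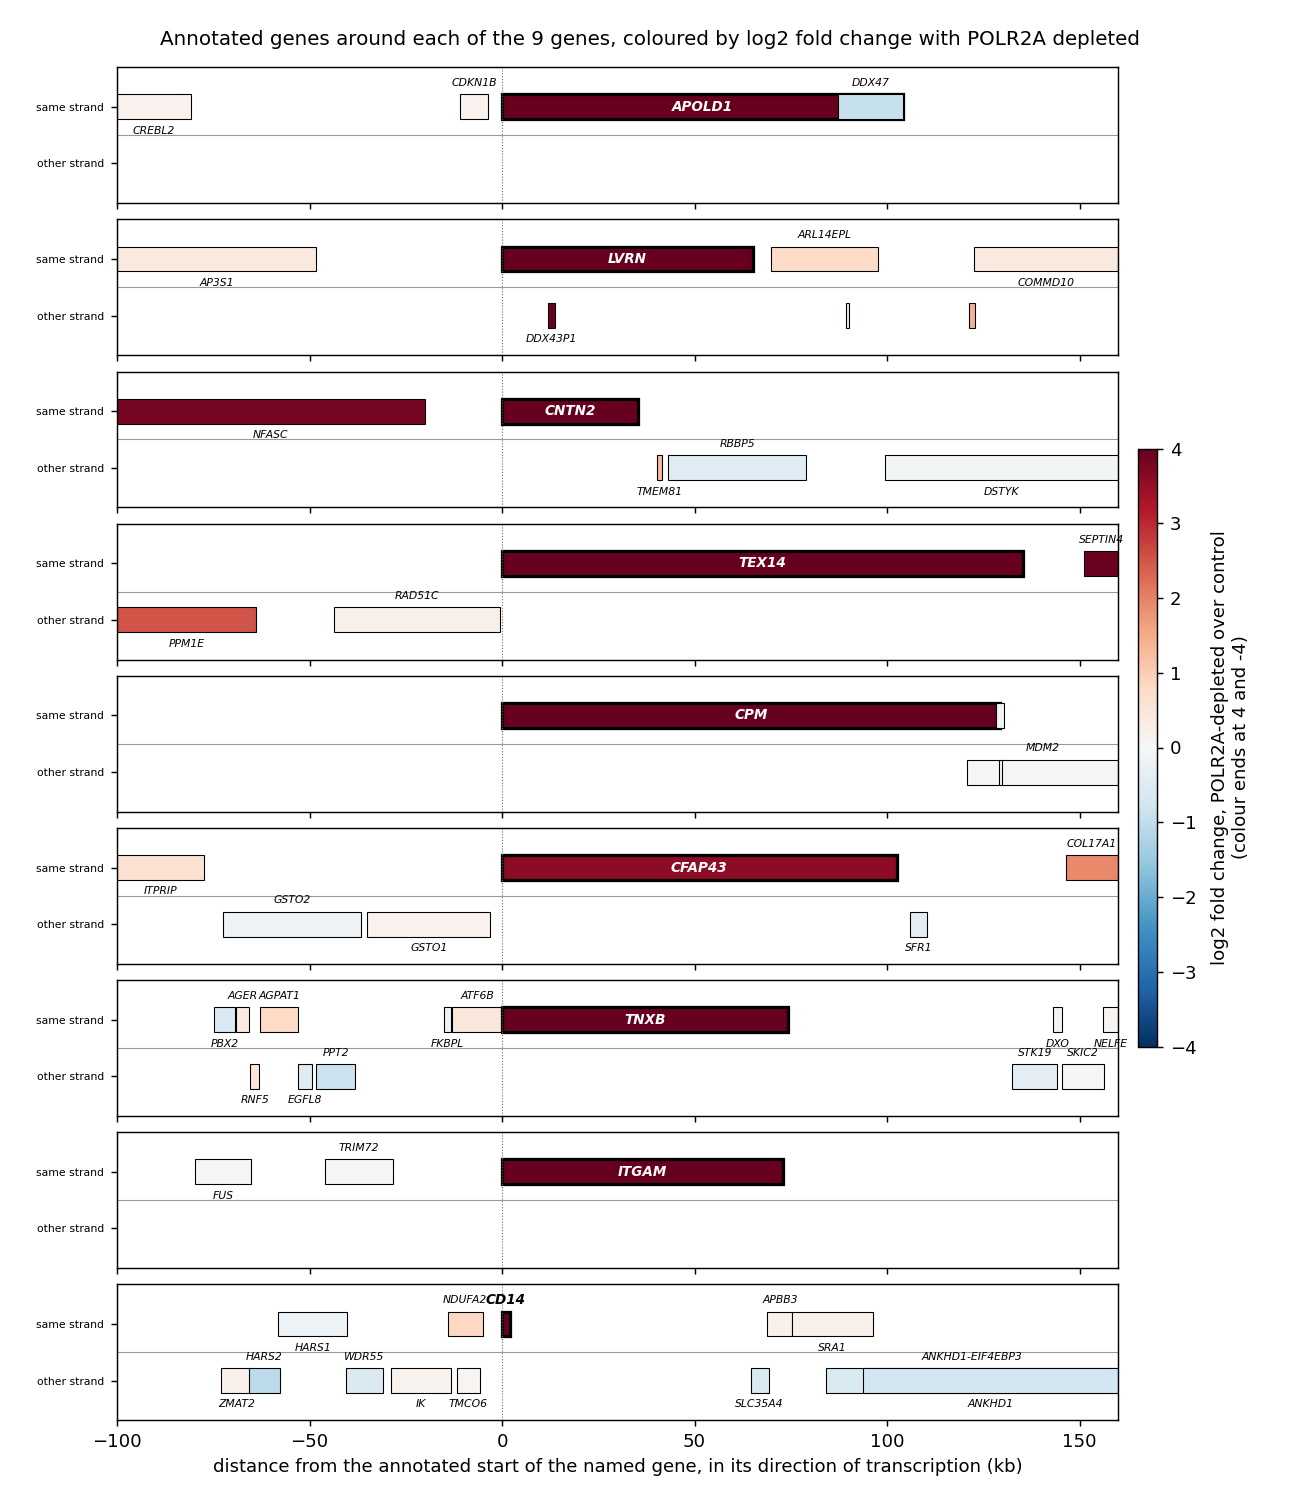
Annotated genes from 100 kb before to 160 kb after the start of each of the 9 genes, in its direction of transcription, coloured by the log2 fold change of POLR2A-depleted over control libraries; neighbours with 5 c.p.m. or more in either group are drawn. APOLD1, TNXB, ITGAM and CD14 follow pale upstream genes, while NFASC before CNTN2 and SEPTIN4 after TEX14 are nearly as dark as the genes they flank.

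Genes on the other strand lay close to each of the remaining 4. CPM ran into the end of MDM2, a p53 regulator, with 133 exon bases in common. MDM2 averaged 218 c.p.m. with POLR2A depleted, 841 with POLR1A depleted, 182 with actinomycin D and 209 in controls. Against controls MDM2 differed by 0.06 with POLR2A depleted, 2.01 with POLR1A depleted and -0.21 with actinomycin D. CPM differed by 3.98, 1.67 and 1.45 in the same order. The part of MDM2 reads in the level of CPM was not tested. The setting for strand in the authors' counting is not given in the sources used here, so reads of MDM2 and CPM over those bases may not be separated. RAD51C began 518 bases from the start of TEX14 in the opposite direction and differed by 0.24 with POLR2A depleted, and GSTO1 began 2994 bases from CFAP43 and differed by 0.18. RBBP5 ended 7858 bases from the end of CNTN2 and differed by -0.48. These were genes expressed in controls. Other-strand genes under 5 c.p.m. in controls but over it with POLR2A depleted had to be higher by that choice, so nothing is read from their differences. Among them were TMEM81 near the end of CNTN2 at 1.26 and DDX43P1 inside LVRN at 5.95. PPM1E, more than 50 kb before the start of TEX14, differed by 2.50.

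The next coding genes downstream on the same strand differed in some cases and were not called in others. SEPTIN4 lay 15860 bases beyond TEX14 and stood at 31.8 c.p.m. with POLR2A depleted and 2.03 in controls, a difference of 3.94 (SE 0.18), close to the 4.01 of TEX14. COL17A1 beyond CFAP43 stood at 12.6 and 3.33, a difference of 1.92, and ITGAX, 22242 bases beyond ITGAM, at 2.07 and 0.529, a difference of 1.99. ITGAX also differed from controls by 2.89 with POLR1A depleted and by 1.76 with actinomycin D. ARL14EPL, 4705 bases beyond LVRN, stood at 19.1 and 11.3, a difference of 0.76. Beyond APOLD1, GPRC5A stood at 253 c.p.m. with POLR2A depleted and 594 in controls, a difference of -1.23. TMCC2 beyond CNTN2 differed by 0.12 and MDM1 beyond CPM by -0.27 (edgeR adjusted p = 0.637 and 0.111). DXO beyond TNXB differed by -0.14 and APBB3 beyond CD14 by 0.20 (edgeR adjusted p = 0.363 and 0.179). Whether reads of the 9 genes belong to transcripts that start in a neighbour was not tested, since the table gives 1 count per gene and library.

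**Figure D3:**
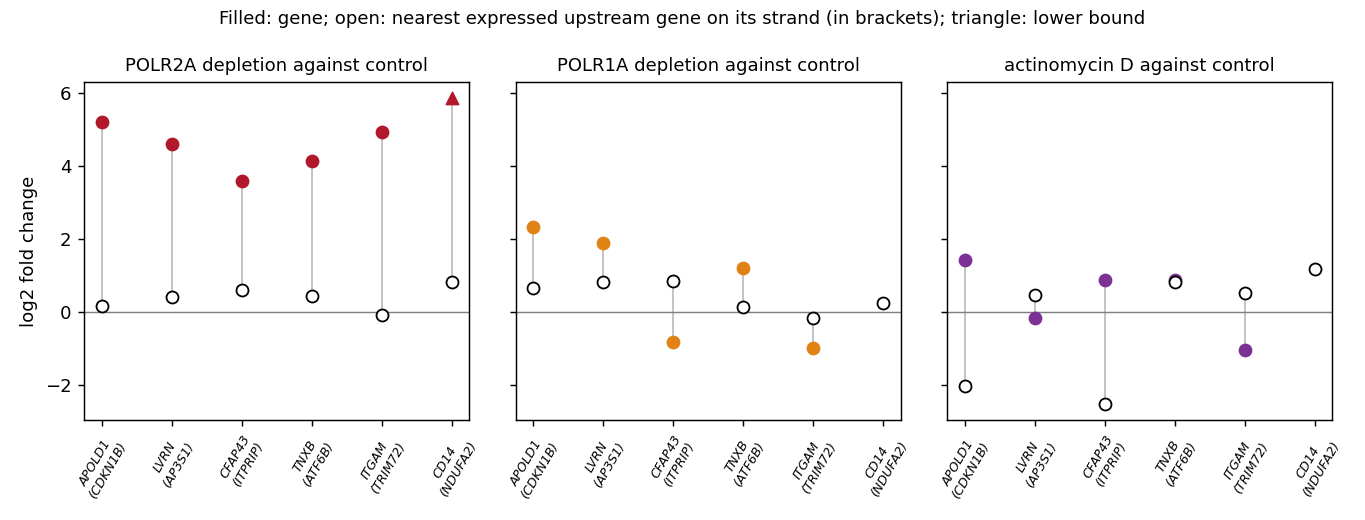
Log2 fold change against control of 6 of the genes (filled) and of the nearest expressed same-strand gene within 100 kb upstream (open, in brackets), with POLR2A depleted, POLR1A depleted and actinomycin D from left to right; the triangle for CD14 is a lower bound. With POLR2A depleted each filled point lies at 3.58 or above and each open point below 1, while with actinomycin D CDKN1B and ITPRIP lie below -2. The filled genes were chosen on the comparison with POLR2A depleted, so the gap there was set in advance.

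Weak coding genes in general were described by the distance to an expressed upstream gene. Coding genes under 5 c.p.m. in controls that passed the filter without the POLR2A-depleted libraries were grouped by that distance, after the values had been seen. The median log2 difference with POLR2A depleted was 0.94 for 501 genes with an overlapping or up to 5 kb distant upstream gene, 0.93 for 149 genes at 5 to 10 kb, 0.75 for 604 genes at 10 to 50 kb and 0.46 for 1750 genes with none within 50 kb. In these classes 49.7%, 53.0%, 48.3% and 38.7% were called higher, against 25.3% of the 20214 tested genes that passed that filter. Those genes were of all types and levels, whereas the classes hold coding genes picked for a low level in controls. The quartiles of the classes overlapped widely, and the classes were not tested against each other. All 4 medians lie well under the values of the 9 genes, which were chosen for high values.

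**Figure D4:**
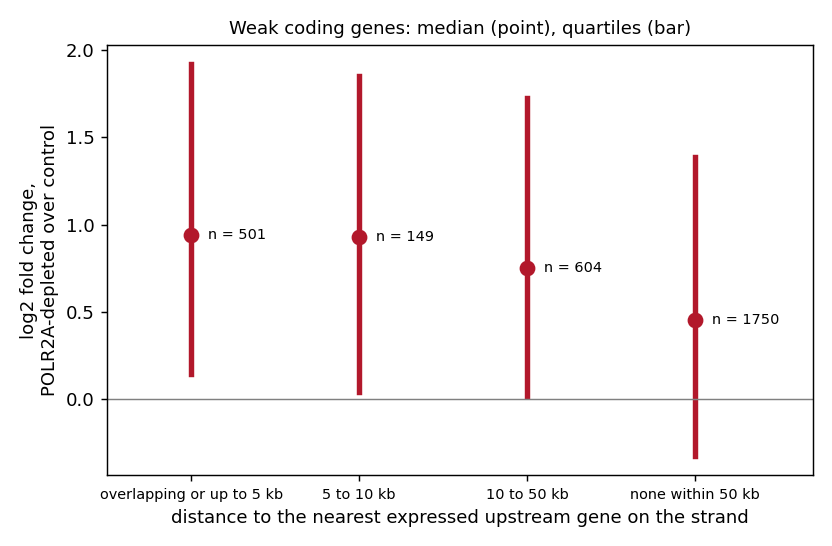
Log2 fold change of POLR2A-depleted over control libraries for weak coding genes, by distance to the nearest expressed upstream gene on the strand; points are medians, bars run from the lower to the upper quartile, and n is the number of genes. The median is 0.94 in the closest class and 0.46 where no expressed gene lies within 50 kb.

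Other genes of the same families were compared with POLR2A depleted against controls. Counts cover genes that passed the filter without the POLR2A-depleted libraries, of which 25.3% were called higher and 32.9% lower, against 33.2% and 28.2% of all tested genes. This restriction was chosen after the values were seen, since genes that pass only where they are high had to differ. Of the apolipoprotein L genes 1 passed in this way, APOL2, which was higher by 0.67 (SE 0.17, edgeR adjusted p = 0.00227). APOL6, which passed only through the POLR2A-depleted libraries, stood at 8.08 ± 0.58 c.p.m. with POLR2A depleted and 0.163 ± 0.113 in controls (SD, n = 3 each). Of 10 M1 aminopeptidases, the family of LVRN, 6 were higher and 2 lower, with a median of 0.29. Among them TRHDE, which degrades thyrotropin-releasing hormone, rose by 2.0 (SE 0.15, edgeR adjusted p = 1.66e-10). Of 4 carboxypeptidases related to CPM 2 were higher and 0 lower, and CPE, which processes prohormones, rose by 0.79 (SE 0.08, edgeR adjusted p = 4.11e-08).

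Of 5 contactins and partners of CNTN2 3 were higher and 1 lower, with NFASC the highest by level and CNTNAP2 at 0.199 ± 0.127 c.p.m. with POLR2A depleted and 3.67 ± 0.82 in controls (SD, n = 3 each). Of 7 cilium and flagellum proteins 5 were higher and 0 lower, with a median of 1.72. CFAP70 among them rose by 1.94 (SE 0.15, edgeR adjusted p = 5.77e-10), at 27.2 ± 1.03 c.p.m. with POLR2A depleted and 7.11 ± 1.54 in controls (SD, n = 3 each). Of 7 midbody proteins linked to the TEX14 bridge 0 were higher and 5 lower, led by the kinase PLK1, which fell by 0.92 (SE 0.06, edgeR adjusted p = 5.28e-11). Of 2 integrin genes around ITGAM 1, ITGAX, was higher and 1, ICAM1, lower, and of 7 genes in lipopolysaccharide signalling around CD14 2 were higher and 2 lower. No tenascin other than TNXB passed without the POLR2A-depleted libraries.

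Markers of the tissues in which the 9 genes are best known were summed over each library. Endothelial markers other than APOLD1 stood at 69.9 to 72.9 c.p.m. with POLR2A depleted and 33.7 to 39.5 in controls. They stood at 35.7 to 41.3 with POLR1A depleted and at 67.1 to 72.4 with actinomycin D, which overlapped the POLR2A-depleted libraries. The largest part of each sum was EGFL7, at 39.2 with POLR2A depleted, 59.1 with actinomycin D and 28.1 in controls on average. With POLR2A depleted and with actinomycin D, CLDN5 averaged 6.38 and 0.362, ESAM 6.31 and 9.27, and VWF 0.453 and 0.653. Only through the POLR2A-depleted libraries did 5 pass the filter, PECAM1 at 7.92 with POLR2A depleted and 0.163 in controls among them. Of the 4 that passed the filter without those libraries 2 were higher with POLR2A depleted than in controls and 0 lower. Myeloid markers other than CD14 and ITGAM summed to 11.8 to 13 with POLR2A depleted and 5.34 to 7.88 in controls, with 1 higher and 1 lower of the 3 that passed in that way. Their sums were 9.34 to 12.1 with POLR1A depleted and 3.67 to 5.49 with actinomycin D. A further 4, PTPRC, LYZ, FCER1G and MPO, passed only through the POLR2A-depleted libraries, and MPO averaged 3.22 with POLR2A depleted and 0.0195 in controls. Of the 14 markers 13 had a count with POLR2A depleted, all but TYROBP, and 9 in controls. With POLR1A depleted 13 had a count, and with actinomycin D 12. Motile cilium markers summed to 23.2 to 25.9 with POLR2A depleted and 16.1 to 19.8 in controls, with 1 higher and 1 lower of 4, and connective tissue markers to 30.1 to 33.3 and 20.7 to 23.3, with 2 higher and 0 lower of 3. The cilium sums were 11.6 to 16.3 with POLR1A depleted and 11.2 to 14.9 with actinomycin D. Those of connective tissue were 42.8 to 43.5 and 37.0 to 39.3, both above the range with POLR2A depleted. Germ cell markers summed to 2.21 to 3.38 with POLR2A depleted and 1.92 to 3.27 in controls, and neural markers to 75.1 to 76.5 and 147 to 162. With POLR1A depleted the germ cell and neural sums were 1.52 to 2.68 and 96.1 to 104. With actinomycin D they were 0.916 to 2.11 and 132 to 135. The part of other cell types in the levels of the 9 genes was not tested.

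Olfactory receptor genes were counted beside them. Of 381 such genes 177 to 186 had a count in a POLR2A-depleted library, 75 to 80 with POLR1A depleted, 55 to 63 with actinomycin D and 60 to 72 in a control, although the POLR2A-depleted libraries held the fewest counts on average. Their summed level was 257 to 281 c.p.m. with POLR2A depleted and 347 to 664 in controls.

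By Pearson's r the coding genes most like the 9 across the 12 libraries were CORIN, ITGA1, SYT11, TECTA and AOC3. Pearson's r between their log2 level and the mean of the standardised log2 levels of the 9 ran from 0.988 for AOC3 to 0.995 for CORIN, over 12 libraries that share 4 groups and their depth. CORIN, a heart protease, averaged 29.6 ± 2.74 c.p.m. with POLR2A depleted, 5.06 ± 0.56 with POLR1A depleted, 4.45 ± 0.67 with actinomycin D and 3.71 ± 0.67 in controls (SD, n = 3 each). ITGA1, a collagen-binding integrin chain, stood at 32.0 ± 2.08 with POLR2A depleted and 2.18 ± 0.09 in controls. Of 14915 coding genes compared, 314 had an r over 0.95, so the pattern was shared by many genes. The order was not kept by Spearman's rho, which ranked CORIN 81, ITGA1 130, SYT11 246, TECTA 17 and AOC3 633.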

How the data were processed

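RNA-seq libraries of 4 groups of 3 were analysed from the table of estimated counts per gene deposited by the authors. Per the submitters' processing notes STAR, RSEM 1.3.3 and HTSeq 2.0.2 were among the tools and GRCh38 the build. The annotation release and the strand setting were not given in the sources used. Per the labels' protocols a stranded total RNA kit with rRNA depletion was used. Of the deposited values 76.1% were whole, and all were rounded. Genes passing filterByExpr (23593 of 49388 with a count) were fitted with edgeR 4.0.16 in R 4.3.3, with TMM scaling over all 12 libraries, glmQLFit (robust) and glmQLFTest. Calls had a Benjamini-Hochberg adjusted p under 0.05. The scripts were tested on simulated data. Standard errors are the fold change over the root of the F statistic. Levels are counts-per-million (c.p.m.) on TMM-scaled totals.

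Gene positions come from GENCODE 29 (GRCh38), and promoter windows from RefSeq GRCh38.p14. The genes named were the 9, their neighbours, genes that share exons with them, the 5 most alike, genes ranked around them and up to 2 per family list. The 9 genes and all lists were chosen with earlier results of these data known. Alternatives were DESeq2 1.42.0, other scalings, no filter, only the 2 groups compared, a replicate block and leaving out each library. Neighbours starting on the other strand, downstream genes, the classes by distance and list counts without genes that pass the filter only through the POLR2A-depleted libraries were added after the data were seen. Depth limits the precision of ITGAM and CD14, and limits set by a count of 0 cover counting error only.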

Additional observations from a re-analysis of the deposited data

Results flagged for a closer look

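Of the 8 genes with a value 3 differed between POLR1A depletion and actinomycin D by edgeR's quasi-likelihood test, 2 higher and 1 lower, against 31.8% higher and 24.4% lower of all tested genes. LVRN was higher with POLR1A depleted by 2.06 on the log2 scale. APOLD1 was higher by 0.92, and by 0.36 without a call (edgeR adjusted p = 0.230) under scaling to mitochondrial mRNAs. CFAP43 was lower, at -1.69.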

How the results depend on the processing

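The log2 difference of the 9 genes with POLR2A depleted was positive in all 14 settings, the lowest being 3.30 for CFAP43. Under scaling to mitochondrial mRNAs CNTN2 with actinomycin D turned to 0.41, and calls numbered 5041 higher with POLR2A depleted, 1263 lower with POLR1A depleted, 11900 higher and 2061 lower with actinomycin D, and 3495 higher and 9256 lower with POLR1A depleted against actinomycin D, in place of 7830, 4380, 5879, 6722, 7502 and 5757. The higher share of calls was 38.6% with POLR2A depleted, 85.1% with POLR1A depleted, 85.2% with actinomycin D and 27.4% with POLR1A depleted against actinomycin D under that scaling, in place of 54.1%, 52.6%, 46.7% and 56.6%. It moved the median log2 difference of all genes to -0.203, 0.369, 0.823 and -0.414, in place of 0.0845, 0.0131, -0.0606 and 0.115. Library totals gave a median of 0.275 and a higher share of 66.2% for POLR1A depleted against actinomycin D, and medians of 0.208 with POLR2A depleted and -0.177 with actinomycin D. With POLR1A depleted against actinomycin D, CNTN2, TEX14, CPM, TNXB and ITGAM, none of them called, changed sign under scaling to mitochondrial mRNAs, to -0.27, -0.14, -0.34, -0.23 and -0.50. With library totals CPM and TNXB passed in that comparison, at 0.39 and 0.49 (edgeR adjusted p = 0.0139 and 0.0319). Of the 9 genes 3 had an expressed gene within 10 kb upstream. The cause of these changes was not tested.

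Leaving out 1 library at a time gave 7193 to 8241 genes higher and 6422 to 6712 lower with POLR2A depleted, 4364 to 4745 and 3772 to 4080 with POLR1A depleted, 5500 to 5787 and 6090 to 6649 with actinomycin D, and 6924 to 7223 and 5315 to 5519 with POLR1A depleted against actinomycin D. Same-numbered replicates did not deviate together (r -0.0547 to 0.0340 over 18 pairs), so the numbers do not pair libraries. With the replicate block 7576 genes were higher and 6518 lower with POLR2A depleted, and LVRN differed by 2.06 between POLR1A depletion and actinomycin D. By Spearman's rho CORIN had 0.916 and AOC3 0.769. Depth limits ITGAM and CD14.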
